A study of Mus musculus with 2 samples.

Results

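*Drd2*, *Adora2a*, *Chrm4*, *Oprm1*, *Gpr149* and *Rxrg* are 6 of the 500 genes of a MERFISH panel, an imaging assay in which barcoded probes count single RNA molecules in place. They were chosen by name as genes of the striatum, with earlier results of these data known. Their levels, their place and their meeting in single cells are described here. The data are 1 coronal brain section of 10 µm from a control embryo and 1 from a knockout (KO) embryo, both at E16.5. Both embryos carried a heterozygous *Sst-Cre* allele and a *tdTomato* reporter at *Rosa26*, and the KO embryo carried in addition the floxed allele *Dnmt1 loxP2*, named in the labels as B6; 129S-Dnmt1tm2Jae/J. Cre is driven by *Sst* in this cross, so *Dnmt1*, the gene of a DNA methyltransferase, is targeted in cells of the somatostatin lineage. Which cells of the striatum recombined was not examined. *Dnmt1* is not on the panel, and its deletion was not checked here.

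Each group was 1 section. No difference between sections has a replicate, no test was run, and section, run and genotype cannot be told apart. Intervals of levels and shares are exact 95% intervals, and those of section ratios set opposite ends of both against each other. Those of gene pairs in single cells are approximate, as described under the processing. All of them cover counting error only. The KO section had a greater depth, meaning more decoded transcripts per cell, with a median of 101 panel transcripts per cell against 20 in the control. Levels are therefore given as counts per 1000000 panel transcripts (CPM), over cells with at least 20 panel transcripts.

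The striatum is built mainly from inhibitory projection neurons of 2 kinds. Neurons of the direct pathway carry the dopamine receptor D1 and make substance P and dynorphin, and neurons of the indirect pathway carry the dopamine receptor D2 together with an adenosine receptor and make enkephalin. *Drd2* and *Adora2a* encode those last receptors, which act against each other on cyclic AMP. *Chrm4* encodes the muscarinic acetylcholine receptor M4, an inhibitory receptor known in the adult mainly from neurons of the direct pathway. *Oprm1* encodes the mu opioid receptor, known in the striatum for its patches, the striosomes. *Gpr149* encodes an orphan receptor whose ligand is not known. *Rxrg* is the exception among these genes, since it encodes the nuclear receptor RXR gamma, which binds DNA as a partner of other nuclear receptors, the retinoic acid receptors among them.

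Since *Rxrg* encodes a DNA-binding receptor, the sequence before the start is shown for *Drd2* and *Rxrg*, whose levels differed between the sections by less than counting error, and for *Chrm4*, whose level differed by more. Letters in capitals mark the hexamer bound by many nuclear receptors, searched as AGGTCA or GGGTCA on both strands (TGACCT or TGACCC when read on the other strand). The windows are the 250 bases before a start given by RefSeq (GRCm38.p6), all on the plus strand, chr9:49340153-49340402 for *Drd2*, chr2:91921939-91922188 for *Chrm4* and chr1:167598112-167598361 for the first of 2 starts of *Rxrg*. The *Drd2* window ends inside the gene interval given below, which begins at 49340360, while those of *Chrm4* and *Rxrg* end just before theirs.
Drd2: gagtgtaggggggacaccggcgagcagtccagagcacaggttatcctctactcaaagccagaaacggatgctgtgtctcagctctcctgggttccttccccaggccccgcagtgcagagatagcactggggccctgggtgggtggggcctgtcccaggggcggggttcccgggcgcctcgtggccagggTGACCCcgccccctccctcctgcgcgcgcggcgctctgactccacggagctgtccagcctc
Chrm4: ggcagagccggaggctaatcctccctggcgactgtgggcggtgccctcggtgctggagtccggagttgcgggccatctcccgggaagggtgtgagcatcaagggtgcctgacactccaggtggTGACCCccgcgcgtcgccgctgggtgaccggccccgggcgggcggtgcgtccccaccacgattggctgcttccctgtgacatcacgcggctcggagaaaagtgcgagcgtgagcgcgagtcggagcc
Rxrg: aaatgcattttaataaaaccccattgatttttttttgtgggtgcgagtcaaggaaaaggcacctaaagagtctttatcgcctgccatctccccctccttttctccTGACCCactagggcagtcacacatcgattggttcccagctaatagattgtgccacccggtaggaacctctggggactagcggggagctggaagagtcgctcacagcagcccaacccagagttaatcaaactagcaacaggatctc
Counted from the start that each window precedes, the *Drd2* hexamer begins at -61, that of *Chrm4* at -127 and that of *Rxrg* at -145. Of 7 windows matched for *Drd2*, *Chrm4*, *Oprm1* and *Rxrg*, 6 hold the hexamer, whereas 23.8% of 32851 windows of all genes hold it. The 7 windows are not independent, because 2 of the 3 *Oprm1* windows overlap, and the spelling was chosen after others had been searched in them. A match is a description of letters and not a binding site. In the same build the genes lie on 5 chromosomes, *Drd2* at chr9:49340360-49408177, *Adora2a* at chr10:75316877-75334792, *Chrm4* at chr2:91922189-91929835, *Oprm1* at chr10:6758593-7038209, *Gpr149* at chr3:62529430-62605440 and *Rxrg* at chr1:167598362-167639623.

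The striatal region was outlined in each section from 6 panel genes that are not members, among them *Ebf1*, *Foxp1*, *Isl1*, *Meis2* and *Bcl11b*. Its area was 1.49 mm² (control) and 1.58 mm² (KO). It held 14231 control cells, of which 6664 (46.8%) reached 20 transcripts, and 16674 KO cells, of which 16189 (97.1%) did. The control hemispheres differed in depth, with 34.3% of cells over the minimum in hemisphere 1 and 58.9% in hemisphere 2, while the KO hemispheres had 97.6% and 96.5%. Hemisphere numbers are arbitrary and carry no side. Blank barcodes, which match no gene, reached a median of 86.6 CPM and at most 321 CPM in the control striatal region, and 74.0 and 304.5 CPM in the KO.

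All members were enriched in the striatal region in both sections. *Rxrg* ranked first of all 500 panel genes, with 29350 CPM in the striatal region against 1159 CPM in the rest of the section outside striatum and pallium in the control, and 29933 against 1141 CPM in the KO. Its striatal level was 30.4-fold that of all cells outside the striatal region in the control and 33.4-fold in the KO. In this ranking the genes used for the outline are included, and they are bound to stand high. The members were chosen as striatal genes, and the outline was set after their maps had been seen. Their enrichment and ranks are therefore descriptions and no independent evidence of a striatal place.

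*Drd2* had rank 5 in both sections with a striatal enrichment of 12.6-fold in the control and 12.3-fold in the KO. *Oprm1* followed directly in both, at 12.2-fold and 11.7-fold. *Chrm4* was enriched 14.4-fold in the control and 8.47-fold in the KO, *Gpr149* 8.12-fold and 6.45-fold, and *Adora2a* 7.50-fold and 5.85-fold. Thus the order of the members was not the same in both sections, and *Chrm4* moved from rank 4 to rank 9.

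In the pallial region, the developing cortex, 4 of the 6 members were above the median blank in both sections. *Rxrg* lay at 72.8 CPM in the control and 81.6 CPM in the KO, near the median blank of the pallial region of 78.1 and 92.0 CPM. *Gpr149* lay at 127 and 67.2 CPM, on either side of the median blank. *Chrm4* (186 and 147 CPM), *Oprm1* (178 and 192 CPM), *Drd2* (280 and 215 CPM) and *Adora2a* (372 and 408 CPM) were above the median blank in both sections. Most panel genes were above it too. By pallial level *Oprk1* had rank 408 of the panel in the control and 389 in the KO. At 83.5 and 102 CPM it was still above the median blank, so the count does not set the members apart. Only *Adora2a* in the KO section exceeded the highest of the 50 pallial blanks, which reached 463 CPM in the control and 326 CPM in the KO.

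**Figure D1:**
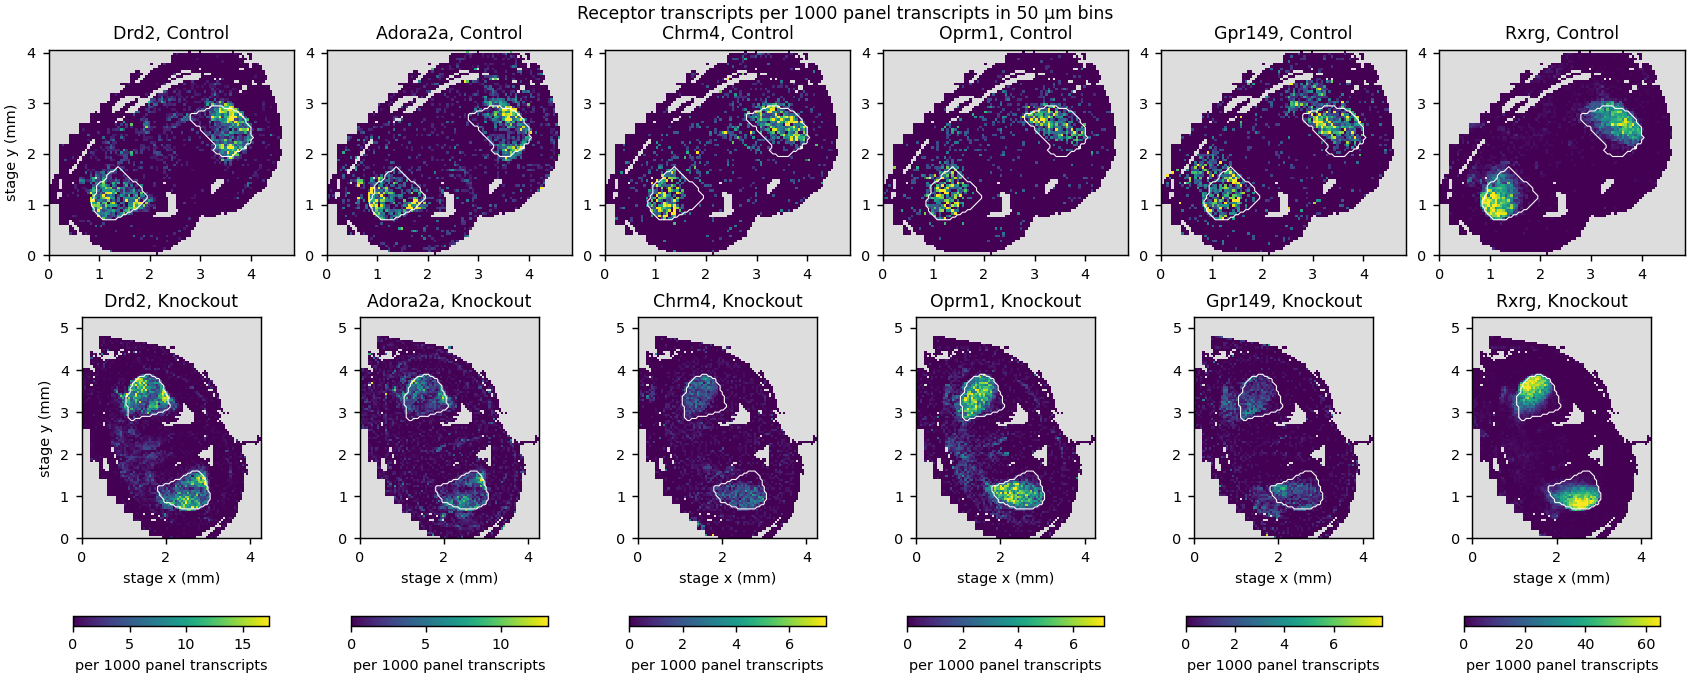
Maps of the 6 receptor genes (columns) in the control (upper row) and KO section (lower row), on stage axes in mm, with 50 µm bins coloured by transcripts of the gene per 1000 panel transcripts, each gene on its own colour scale shared by both sections, and the striatal region outlined in white. All 6 genes are brightest inside the outlines, and *Rxrg*, at 29350 CPM in the control and 29933 CPM in the KO striatal region, is dim in their medial part.

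Comparing the sections, the 6 genes did not go together. *Rxrg* and *Drd2* differed by less than counting error, *Oprm1* was somewhat higher in the KO, and *Adora2a*, *Chrm4* and *Gpr149* were lower in the KO by more than 1.5-fold. Each member's value in all 4 hemispheres is given first.

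*Drd2* was counted at 6798 and 7359 CPM in control hemispheres 1 and 2, and at 7640 and 7139 CPM in KO hemispheres 1 and 2. The hemispheres of the sections overlapped, and the log2 ratio of KO over control was 0.05 (−0.05 to 0.14). *Adora2a*, its partner in the indirect pathway, was counted at 4758 and 4619 CPM in the control and at 3031 and 3104 CPM in the KO, with a log2 ratio of −0.61 (−0.73 to −0.48). The control hemispheres were both above the KO hemispheres, and the hemispheres of a section differed by far less than the sections.

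*Chrm4* was counted at 3088 and 3348 CPM in the control hemispheres and at 1295 and 1383 CPM in the KO hemispheres. *Gpr149* was counted at 3008 and 3087 CPM and at 1186 and 1303 CPM. These 2 receptors had the lowest log2 ratios of the members, −1.29 (−1.45 to −1.13) for *Chrm4* and −1.30 (−1.47 to −1.14) for *Gpr149*, at percentiles 2 and 1.6 of the ratios of the panel genes compared. For both genes the lowest control hemisphere was more than 2-fold above the highest KO hemisphere.

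*Oprm1* was counted at 2743 and 2467 CPM in the control hemispheres and at 3328 and 3366 CPM in the KO hemispheres, a log2 ratio of 0.39 (0.24 to 0.54). Its KO hemispheres were both higher, but the difference did not reach 1.5-fold. *Rxrg* was counted at 36351 and 26075 CPM in the control and at 29032 and 30979 CPM in the KO, a log2 ratio of 0.03 (−0.02 to 0.07). The control hemispheres lay on either side of the KO hemispheres, so the flat ratio of *Rxrg* averaged over a spread within the control section that was wider than its counting error.

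Against the panel, 250 genes at or above the median CPM were compared, and their median log2 ratio was −0.04. Of these, 13.2% were more than 1.5-fold higher in the KO and 18.8% more than 1.5-fold lower, while 0 of the 6 members were higher and 3 were lower, with a median of −0.29. Outside the striatal region the ratios were smaller for the lower genes, at −0.52 for *Chrm4*, −0.97 for *Gpr149* and −0.25 for *Adora2a*, and were 0.08 for *Drd2*, 0.45 for *Oprm1* and −0.11 for *Rxrg*. The direction of the 3 lower genes and of *Oprm1* was thus not confined to the striatal region.

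**Figure D2:**
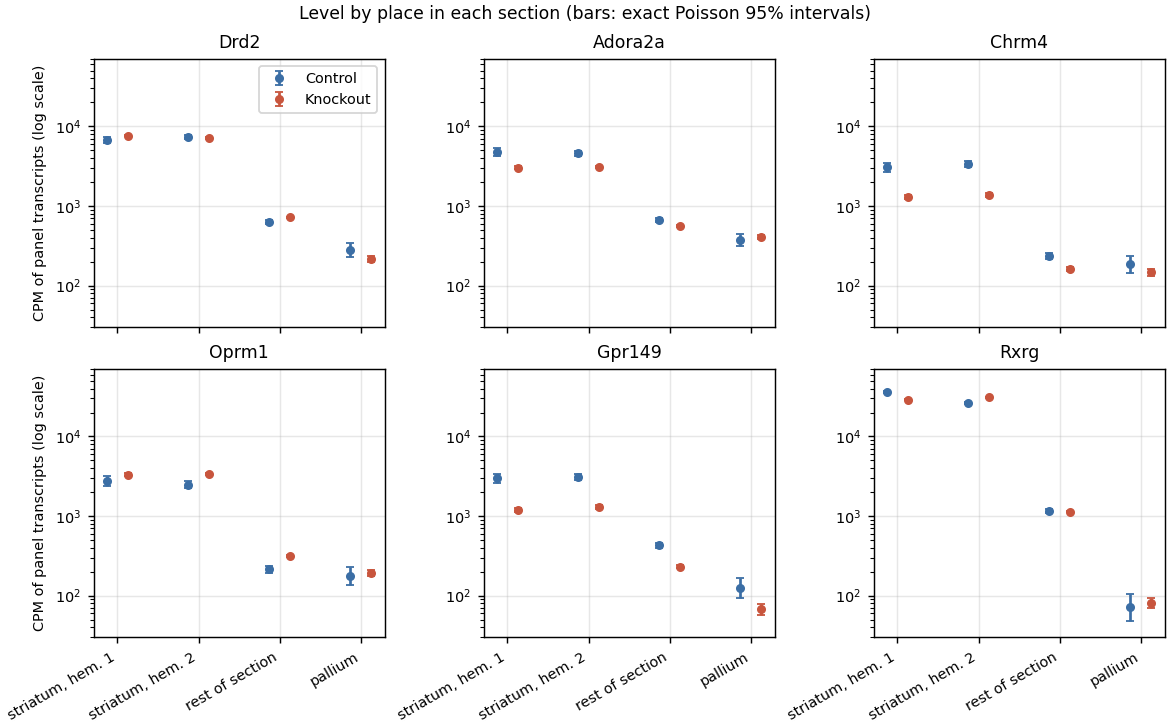
Levels of the 6 receptor genes in each striatal hemisphere, in the rest of the section and in the pallial region, in CPM on a log axis, with a point for each section and bars for the exact Poisson 95% interval. For *Chrm4* and *Gpr149* the control hemispheres lie at 3008 CPM or more and the KO hemispheres at 1383 CPM or less, whereas for *Drd2* the hemispheres of the sections overlap.

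The sections also differed in how molecules were spread over the imaging planes. A section is read in 7 planes, and in the striatal region the panel had 32.8% as many molecules in plane 6 as in plane 0 in the control and 62.6% in the KO. For *Gpr149* these shares were 62.3% and 78.5%, for *Drd2* 38.0% and 81.2%, and for *Chrm4* 33.6% and 58.4%. They were 39.9% and 62.5% for *Adora2a*, 35.9% and 65.4% for *Oprm1* and 29.8% and 66.7% for *Rxrg*. With all decoded molecules counted, in cells or not, the ratios were −1.17 for *Gpr149*, −1.07 for *Chrm4* and −0.56 for *Adora2a*, and with those of the first plane alone they were −0.82, −0.86 and −0.36. With KO counts thinned to the control depth they were −1.33, −1.04 and −0.56. *Adora2a* was under 1.5-fold in all 3 of these settings, so its place past that fold depended on the setting, while *Chrm4* and *Gpr149* stayed past it.

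The other genes of the striatal pathways lay on both sides of the control. Of 30 such genes on the panel, 23 reached the median CPM, 5 were past 1.5-fold higher in the KO (*Tac1*, *Foxp2*, *Gad2*, *Gpr52* and *Ebf1*) and 1 was past 1.5-fold lower (*Chrm1*), with a median of 0.07, where 13.2% and 18.8% of the panel genes were past that limit. Below the limit, the opioid-related receptor gene *Oprl1* stood at −0.48 (−0.59 to −0.36) and the adenosine receptor gene *Adora1* at −0.40 (−0.58 to −0.22). The list includes the 6 genes of the outline, *Ebf1* among them. *Drd1*, the receptor of the direct pathway, went from 3987 to 4212 CPM, a log2 ratio of 0.08. *Penk*, the enkephalin gene of the indirect pathway, went from 760 to 663 CPM, a log2 ratio of −0.20, and *Pdyn*, the dynorphin gene, from 2040 to 1847 CPM, −0.14. *Tac1*, the substance P gene, was at 384 CPM in the control and 1265 CPM in the KO, but the control hemispheres differed widely, with 649 and 260 CPM against 1266 and 1263 CPM in the KO hemispheres. The muscarinic receptor M1 gene *Chrm1* went from 5972 to 3118 CPM, −0.94, and was the other muscarinic receptor beside *Chrm4* with a lower level past 1.5-fold. *Chrm2* was at 1204 and 1027 CPM.

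Single cells showed which of these genes met. Because a deeper cell shows more genes, each striatal cell was reduced to 25 transcripts, taken as the mean over all possible draws, which left 4952 control and 15881 KO cells. The number of cells with a pair of genes was then divided by the number given by the shares of each gene alone (observed over expected). A value of 1 means that the genes met as often as their shares give. Among 13530 pairs of panel genes, 41.8% lay above 1 in the control and 40.5% in the KO, and of the 15 pairs of members 9 and 8 did.

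After this reduction the share of striatal cells with *Rxrg* was 46.9% in the control (45.5 to 48.3) and 38.0% in the KO (37.2 to 38.8), and that with *Drd2* was 14.5% (13.5 to 15.5) and 13.7% (13.1 to 14.2). The same share was 9.52% and 6.27% for *Adora2a*, 7.53% and 2.77% for *Chrm4*, 6.84% and 2.83% for *Gpr149* and 5.92% and 7.17% for *Oprm1*. Without the reduction *Drd2* was found in 18.0% of control and 34.6% of KO cells and *Rxrg* in 52.2% and 62.8%, so unreduced shares follow the depth of the sections. As a background, pallial cells reduced in the same way held *Rxrg* in 0.164% and 0.168% and *Drd2* in 0.604% and 0.452%. The lower share of *Rxrg* cells in the KO went with an equal CPM, and no difference is read from it. In unreduced KO cells that held it, *Rxrg* reached a mean of 5.85 transcripts per cell and up to 62.

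*Drd2* and *Adora2a* had the highest observed over expected of the 15 pairs of members in both sections. In the control 152 cells held both, where 68.1 were given by their shares, a ratio of 2.23 (1.94 to 2.53). In the KO 323 cells held both, where 136 were given, a ratio of 2.37 (2.16 to 2.59). *Drd2* was found in 32.2% of control cells with *Adora2a* and in 12.6% of those without it, and in the KO in 32.4% and 12.4%. The pair kept this excess although *Adora2a* itself was lower in the KO section.

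The excess was smaller when place was taken into account. With the expected number summed over bins of 100 µm, the ratio of *Drd2* and *Adora2a* was 1.69 in the control and 1.84 in the KO. Neighbours within 50 µm of an *Adora2a* cell held *Drd2* 1.28 and 1.29 times as often as all neighbours did, well under the ratios within a cell. The pair thus stood out at the scale of cells. Over 100 µm bins of the whole section the correlation of *Drd2* with *Adora2a* was 0.45 in both sections. This was lower than that of *Drd2* with *Oprm1* (0.70 in the KO over 1344 bins, 0.55 in the control over 1178 bins). These correlations take in tissue outside the striatum, where *Adora2a* was also found in vessel cells, so they differ from the pair values in tissue as well as in scale.

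*Drd2* and *Adora2a* had ratios below 1 with *Chrm4*, *Oprm1* and *Gpr149* in both sections. Most of these values are ordinary for the panel. Over the 13530 pairs of panel genes the ratio had a median of 0.957 in the control and 0.964 in the KO, with 5th to 95th percentiles of 0.432 to 1.59 and 0.590 to 1.49. Among the member pairs, those outside that range were *Drd2* with *Adora2a* in both sections and *Adora2a* with *Chrm4* in the KO. With *Oprm1*, *Drd2* had a ratio of 0.650 (0.437 to 0.923) in control cells and 0.677 (0.559 to 0.811) in KO cells, and with *Gpr149* of 0.663 (0.462 to 0.916) and 0.673 (0.489 to 0.896). With *Chrm4* it had 0.825 (0.610 to 1.08) and 0.652 (0.470 to 0.876), the control interval reaching past 1. As counted in segmented cells these pairs overlapped, since *Drd2* was still found in 9.26% of KO cells with *Oprm1*. That share is lower than its 13.7% over all KO striatal cells. The part of transcripts from neighbouring cells in such counts was not tested, so these counts cannot decide whether the genes exclude each other within a cell.

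*Adora2a* was below 1 with the same 3 receptors. Its ratio was 0.543 (0.331 to 0.833) and 0.556 (0.315 to 0.901) with *Chrm4*, and 0.630 (0.374 to 0.983) and 0.667 (0.493 to 0.879) with *Oprm1*. With *Gpr149* it was 0.539 (0.319 to 0.845) in control cells and 0.671 (0.406 to 1.04) in KO cells. These counts were small, with 19.3 control and 15.3 KO cells holding *Adora2a* and *Chrm4* as means over the draws.

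The 3 receptors *Chrm4*, *Oprm1* and *Gpr149* had ratios above 1 with each other when both hemispheres were pooled. *Oprm1* and *Gpr149* had the highest ratio of the 3 pairs, 1.56 (1.07 to 2.16) in control cells and 1.41 (1.04 to 1.85) in KO cells. *Chrm4* and *Oprm1* had 1.14 (0.750 to 1.65) and 1.38 (1.01 to 1.85), and *Chrm4* and *Gpr149* 1.21 (0.837 to 1.69) and 1.29 (0.745 to 2.07). Summed over 100 µm bins, *Oprm1* and *Gpr149* had 1.29 and 1.16 and *Chrm4* and *Oprm1* 0.993 and 1.09, all lower than over the whole region. *Oprm1* with *Gpr149* was below 1 in control hemisphere 1, at −0.27 on the log2 scale, and also at −0.27 in the KO when 2 transcripts were asked of a positive cell, where *Chrm4* with *Oprm1* stood at −0.60.

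*Rxrg*, the nuclear receptor gene, had ratios close to 1 with *Drd2* (1.01 in both sections) and *Adora2a* (1.05 and 0.990). Within 100 µm bins these fell below 1, to 0.939 and 0.944 with *Drd2* and 0.948 and 0.941 with *Adora2a*. With *Chrm4* it had 1.24 (1.08 to 1.40) and 1.47 (1.30 to 1.66), and with *Oprm1* 1.17 (0.999 to 1.36) and 1.27 (1.17 to 1.38), but within 100 µm bins these were 1.07 and 1.05, and 1.08 and 1.02. With *Gpr149* it had 1.05 and 1.10.

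These pair values depended on the reduction of depth. In KO cells used at full depth, all 6 pairs of *Drd2* or *Adora2a* with *Chrm4*, *Oprm1* or *Gpr149* lay between 0.15 and 0.27 on the log2 scale, that is above 1. Cells of unequal depth are mixed in that setting. In control hemisphere 1, the shallower one, *Drd2* and *Oprm1* stood at 0.01 on that scale, against −1.05 in hemisphere 2. *Drd2* with *Adora2a* stayed above 1 in all 4 hemispheres, at 0.99 and 1.23 in the control and 1.19 and 1.31 in the KO on the log2 scale.

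**Figure D3:**
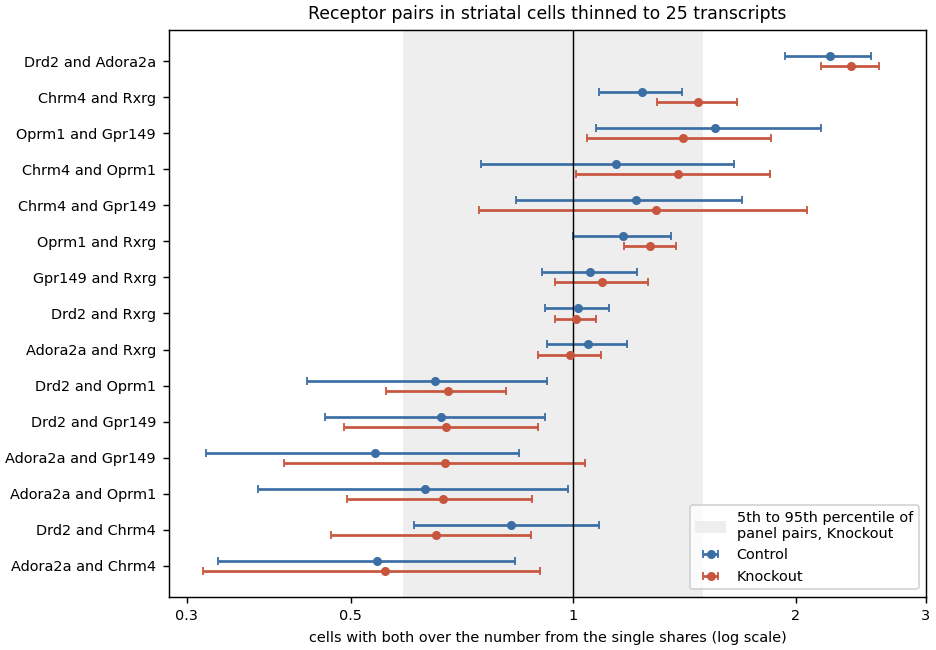
Observed over expected number of striatal cells with both genes of each pair of the 6 receptor genes, on a log axis, for both sections reduced to 25 transcripts per cell, with bars for the 95% interval and a grey band from the 5th to the 95th percentile of the panel pairs in the KO. *Drd2* with *Adora2a* stands at 2.23 in the control and 2.37 in the KO, and the pairs of these genes with *Chrm4*, *Oprm1* and *Gpr149* lie below 1 in both.

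Set against genes that mark the pathways, *Drd2* and *Adora2a* lay above 1 with 4 of 4 indirect pathway genes (*Penk*, *Gpr6*, *Gpr52* and *Sp9*) and with 0 of 5 direct pathway genes (*Drd1*, *Tac1*, *Pdyn*, *Isl1* and *Ebf1*) in both sections. Some of these values were close to 1, such as *Gpr52* in the KO with *Drd2*, at 1.09 (0.805 to 1.43), and with *Adora2a*, at 1.18 (0.741 to 1.75), and in the control *Adora2a* with *Drd1*, at 0.953 (0.695 to 1.27), and with *Pdyn*, at 0.942 (0.589 to 1.41). With *Penk*, *Drd2* had a ratio of 2.02 (1.35 to 2.80) in control cells and 2.63 (2.15 to 3.14) in KO cells, and *Adora2a* of 2.50 (1.57 to 3.64) and 2.67 (1.90 to 3.59). With *Isl1*, a transcription factor of direct pathway neurons, *Drd2* had 0.724 (0.582 to 0.886) and 0.696 (0.629 to 0.767), and *Adora2a* 0.526 (0.377 to 0.711) and 0.670 (0.571 to 0.779). With *Drd1*, *Drd2* had only a small deficit, 0.847 (0.650 to 1.08) and 0.813 (0.688 to 0.952). Of KO cells with *Drd1*, 11.1% were also counted with *Drd2*, and the part of transcripts from neighbouring cells in this share was not tested.

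*Oprm1* and *Gpr149* lay above 1 with 5 of 5 direct pathway genes in both sections, and *Chrm4* with 4 of 5, where 41.8% and 40.5% of all panel pairs lay above 1. Many of these values were close to 1, such as 1.03 and 1.07 for *Oprm1* with *Ebf1* and 1.02 and 1.05 for *Gpr149* with *Ebf1*. With the 4 indirect pathway genes, *Chrm4* and *Oprm1* lay above 1 with 2 in the control and 1 in the KO, *Oprm1* with *Penk* at 1.38 (0.540 to 2.79) in the control among them, and *Gpr149* with 1 in the control and 2 in the KO. *Chrm4* had a ratio of 1.25 (0.915 to 1.65) in control cells and 1.53 (1.15 to 1.99) in KO cells with *Drd1*, and of 1.52 (0.956 to 2.29) with *Pdyn* in the KO. *Oprm1* had 1.19 (0.823 to 1.65) and 1.37 (1.14 to 1.62) with *Drd1*, and *Gpr149* 1.11 (0.779 to 1.52) and 1.08 (0.767 to 1.48), whose intervals both hold 1.

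*Rxrg* had a higher ratio with *Drd1* than with *Drd2*, at 1.31 (1.21 to 1.40) in control cells and 1.55 (1.47 to 1.62) in KO cells. Both *Rxrg* and *Drd1* rose from the medial to the lateral band of the striatal region (bands described below). The log2 difference, control then KO, was 1.90 and 3.21 for *Rxrg* and 1.97 and 2.36 for *Drd1*. Pairs with pathway genes were not computed within 100 µm bins, so the part of place in them was not tested. *Rxrg* also met *Gpr6*, an indirect pathway gene, at 1.19 (0.942 to 1.44) in control cells and 1.5 (1.28 to 1.71) in KO cells. *Sp9*, a transcription factor of young indirect pathway neurons, divided the members. It lay above 1 with *Drd2* (1.43 and 1.60) and *Adora2a* (1.56 and 1.60) and below 1 with *Rxrg* (0.705 and 0.616), *Chrm4* (0.625 and 0.441), *Oprm1* (0.494 and 0.526) and *Gpr149* (0.535 and 0.534). *Pou3f1*, on neither pathway list, was also below 1 with *Rxrg* (0.630 and 0.482), *Chrm4* (0.434 and 0.437), *Oprm1* (0.488 and 0.565) and *Gpr149* (0.428 and 0.526). With *Drd2* it stood at 1.03 and 0.985, and with *Adora2a* at 0.849 and 1.06. The low ratios with *Sp9* were thus not particular to the indirect pathway list.

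**Figure D4:**
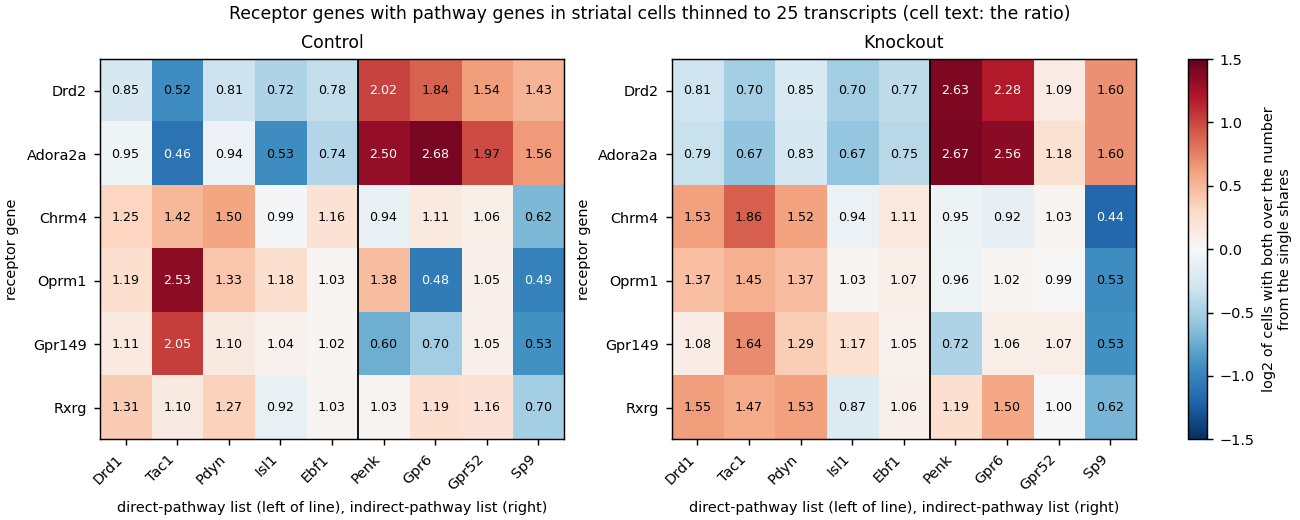
Observed over expected number of striatal cells with both a receptor gene (rows) and a pathway gene (columns, direct pathway left of the line and indirect pathway right of it), in each section reduced to 25 transcripts per cell, with the ratio printed in each field and coloured by its log2. *Drd2* and *Adora2a* are below 1 with all 5 direct pathway genes and above 1 with all 4 indirect pathway genes, and *Sp9* is below 1 with the other 4 receptor genes in both sections.

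Of the 165 panel genes found in at least 1% of reduced striatal cells in both sections, *Adora2a* and *Penk* were the 2 highest partners of *Drd2* in both sections, and *Penk* was the highest of *Adora2a* in both. *Gpr6* was not among these genes, since it was found in 1.53% of control but 0.953% of KO cells, and its ratio with *Adora2a* in the control, 2.68 (1.70 to 3.86), was above that of *Penk*, 2.50. *Top2a*, a gene of dividing cells, was among the 3 lowest partners of *Oprm1* (0.308 and 0.329), *Gpr149* (0.385 and 0.311) and *Rxrg* (0.340 and 0.264) in both sections, and of *Chrm4* in the KO (0.204). It was not among the 3 lowest of *Drd2* or *Adora2a* in either. *Cldn5*, a tight junction gene of blood vessels, had rank 2 among the partners of *Adora2a* in the KO, at 2.50, and was the lowest partner of *Drd2*, at 0.562.

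*Adora2a* was also found in vessel cells over the whole section. Cells were put in a class by the transcripts of listed markers that are not members. In endothelial cells, those lining vessels, *Adora2a* lay at 4277 CPM (3786 to 4815) in 1271 control cells and at 4471 CPM (4270 to 4680) in 2793 KO cells. In mural cells, which surround vessels, it lay at 1634 and 1662 CPM, and in microglia at 593 and 599 CPM. The striatal level of *Adora2a* was 4663 CPM in the control and 3065 CPM in the KO. Classes were gated at a fixed number of marker transcripts in sections of unequal depth. The gate can therefore admit different cells, and no likeness or difference between the sections is read from class levels.

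The other members were low in endothelial cells. *Drd2* lay at 250 and 292 CPM there, *Chrm4* at 109 and 101 CPM, *Oprm1* at 109 and 159 CPM and *Gpr149* at 140.5 and 171 CPM. *Rxrg* lay at 1062 and 865 CPM. Inside the striatal region, endothelial cells reduced to 25 transcripts held *Rxrg* at a share of 23.5% in the control (14.2 to 35.1, 70 cells) and of 17.4% in the KO (12.4 to 23.5, 195 cells), against 2.38% and 1.86% over the section. Vessel cells among neurons rich in *Rxrg* were thus more often counted with it, and the part that transcripts of neighbouring cells had in the pair values was not tested.

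In cells of the medial ganglionic eminence (MGE) interneuron class, to which the interneurons of the *Sst* lineage belong, the members lay below their striatal levels. *Drd2* lay at 518 CPM in the control (347 to 744) and 654 CPM (598 to 713) in the KO. *Gpr149* lay at 911 CPM (678 to 1198) and 277 CPM (241 to 317). Its control value was above its 651 CPM (619 to 685) over the whole control section. *Chrm4* lay at 411 and 271 CPM, *Oprm1* at 179 and 332 CPM, *Adora2a* at 232 and 155 CPM and *Rxrg* at 893 and 697 CPM. The class held 1155 control and 5346 KO cells, and the labels do not mark which cells were recombined.

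Pallial glutamatergic neurons held little of any member, from 112 CPM for *Rxrg* to 309 CPM for *Drd2* in the control, and from 83.9 CPM for *Gpr149* to 314 CPM for *Drd2* in the KO. Radial glia, the progenitors, were lower still for *Drd2*, at 200 and 98.0 CPM. In the subcortical glutamatergic class *Drd2* reached 1532 CPM (1129 to 2031) in the KO, where 164 cells could be reduced to 25 transcripts, and this class held only 18 cells in the control. The class of striatal projection neurons was set mainly by *Meis2*, which gave 76.1% of its marker transcripts in the control and 72.8% in the KO, and only 52.2% and 42.0% of its cells lay in the striatal region, so the outlined region and not this class was used for the levels.

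Within the striatal region the members were not placed alike. Cells of each hemisphere were divided into 3 bands of equal cell number from medial to lateral. With both hemispheres pooled *Rxrg* had the largest difference among the members, from 11438 CPM in the medial to 31036 CPM in the middle and 42718 CPM in the lateral band of the control, and from 5286 to 23311 and 48913 CPM in the KO. *Drd2* went from 3883 to 7483 and 9648 CPM in the control and from 5152 to 7101 and 8937 CPM in the KO. *Adora2a* went from 2293 to 4132 and 7145 CPM and from 2014 to 2656 and 3962 CPM. All 3 genes were higher laterally in each of the 4 hemispheres. In control hemisphere 2 the log2 difference of lateral over medial was larger for *Adora2a* (2.0) than for *Rxrg* (1.66).

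*Chrm4* was also higher laterally in every hemisphere, with 2138, 3698 and 3796 CPM in the control and 494, 1276 and 1868 CPM in the KO. Its level was lowest medially in both sections, and the log2 difference of lateral over medial was 1.92 (1.67 to 2.17) in the KO against 0.83 (0.44 to 1.22) in the control. *Oprm1* did not have a stable medial to lateral order, with a difference of −0.31 (−0.74 to 0.11) for control cells and of 0.78 (0.65 to 0.92) for KO cells. *Gpr149* was higher medially in the control, at −0.37 (−0.73 to −0.01), which came from hemisphere 2 at −0.53 (−0.97 to −0.09) and not from hemisphere 1 at −0.03 (−0.68 to 0.63). In the KO its difference was −0.08 (−0.29 to 0.12).

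From ventral to dorsal, *Oprm1* and *Gpr149* had the largest differences among the members between the end bands, with both hemispheres pooled. *Oprm1* went from 3309 CPM ventrally to 1947 CPM dorsally in the control and from 4159 to 2153 CPM in the KO. *Gpr149* went from 3568 to 2016 CPM and from 1608 to 686 CPM. Both were lower dorsally in all 4 hemispheres. In control hemisphere 1 the intervals hold 0, with log2 differences of −0.41 (−1.13 to 0.31) for *Oprm1* and −0.30 (−1.01 to 0.40) for *Gpr149*. *Rxrg* had a log2 difference of dorsal over ventral of −0.21 in the control (−0.33 to −0.08) and −0.41 in the KO (−0.45 to −0.36), with its highest level in the middle band (34928 and 37515 CPM). The control value of *Rxrg* came from hemisphere 2, at −0.44 (−0.61 to −0.28), since hemisphere 1 stood at 0.09 (−0.11 to 0.29). *Chrm4* had a difference of −0.27 (−0.64 to 0.09) and −0.32 (−0.53 to −0.12). *Drd2* had a log2 difference of dorsal over ventral of 0.23 (−0.02 to 0.48) and 0.15 (0.07 to 0.24), and *Adora2a* one of −0.03 (−0.34 to 0.28) and 0.28 (0.15 to 0.41), so that both were higher dorsally in the KO.

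**Figure D5:**
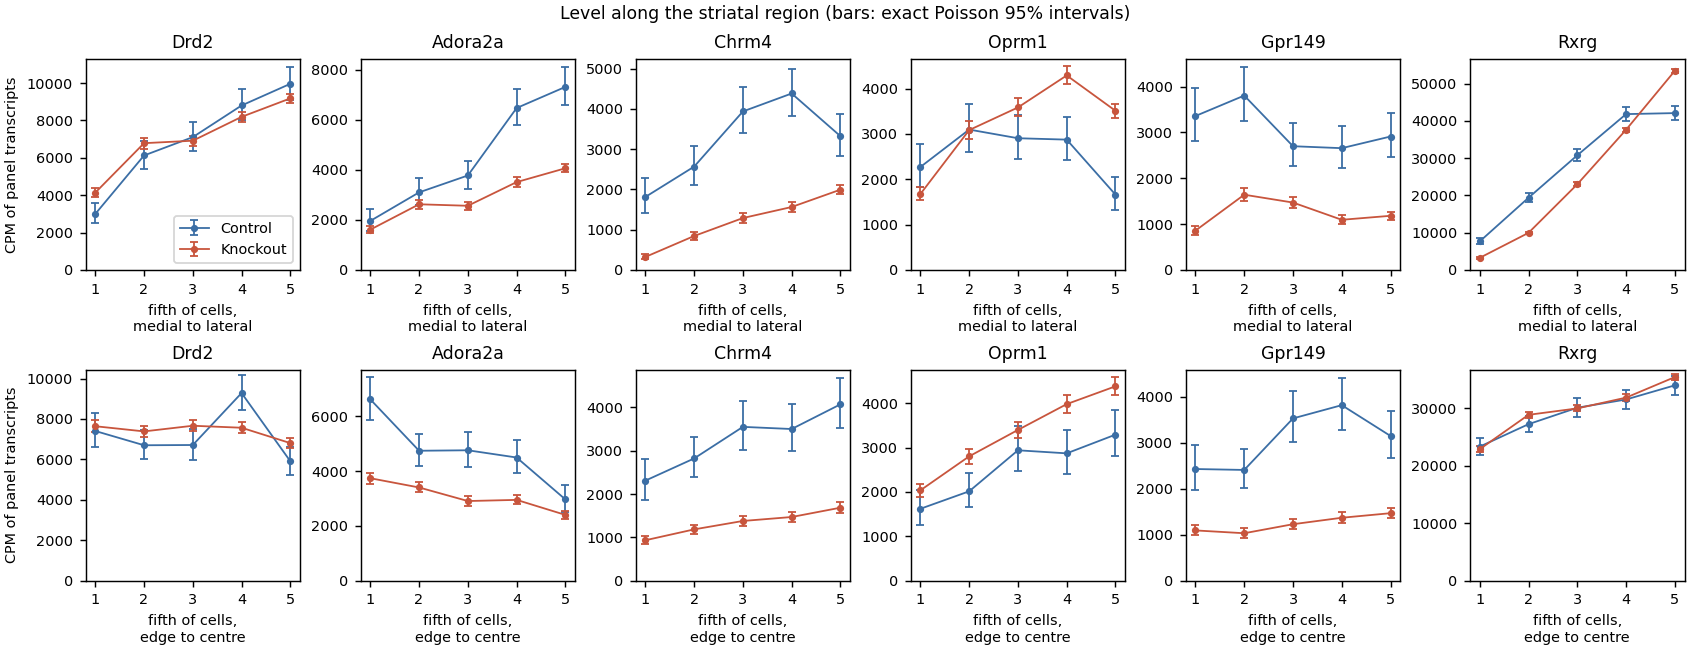
Levels of the 6 receptor genes in CPM in 5 bands of equal cell number, from medial to lateral (upper row) and from the edge to the centre of the striatal region (lower row), with bars for the exact Poisson 95% interval, for both sections. *Rxrg* goes from 7659 CPM in the most medial to 42083 CPM in the most lateral band in the control and from 3252 to 53429 CPM in the KO, and *Adora2a* is lower in the centre than at the edge in both sections.

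The distance from the edge of the region, an axis added after the data had been seen, set *Adora2a* apart from *Chrm4*, *Oprm1*, *Gpr149* and *Rxrg*. *Adora2a* was lower in the inner band than at the edge, at 3682 against 5934 CPM in the control and 2629 against 3568 CPM in the KO. *Oprm1* was higher inside, at 3345 against 1807 CPM and 4240 against 2324 CPM, as was *Chrm4*, at 3981 against 2535 CPM and 1580 against 999 CPM. *Gpr149* and *Rxrg* were higher inside too, by 0.49 and 0.43 on the log2 scale in the control and by 0.44 and 0.46 in the KO. These directions held in each of the 4 hemispheres. *Drd2* had a difference of 0.00 (−0.24 to 0.24) in the control and of −0.10 (−0.18 to −0.01) in the KO, where it went slightly in the direction of *Adora2a*. In control hemisphere 1 some intervals hold 0, those of *Adora2a* at −0.46 (−0.99 to 0.06), *Chrm4* at 0.47 (−0.19 to 1.15) and *Gpr149* at 0.19 (−0.47 to 0.86).

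Over 100 µm bins of the whole section, with genes ranked by the KO section, *Rxrg* was the gene with the pattern most like that of *Oprm1* (Pearson correlation of log2 levels 0.74 in the KO and 0.65 in the control) and of *Gpr149* (0.65 and 0.61), and *Oprm1* was most like *Chrm4* (0.58 and 0.54). In the control section *Rxrg* stood above *Oprm1* for *Chrm4*, at 0.58. Among the 5 genes most like *Drd2* were *Oprm1* (0.70 and 0.55), *Slc32a1*, the vesicular transporter gene of inhibitory neurons (0.70 and 0.62), and *Rxrg* (0.69 and 0.61). Those most like *Adora2a* included *Rxrg* (0.50 and 0.48), *Foxp1* (0.50 and 0.41) and *Ebf1* (0.50 and 0.45), all lower than for *Drd2*. *Tac1* was among the 5 most similar genes of *Chrm4* (0.56 and 0.34), *Gpr149* (0.60 and 0.30) and *Rxrg* (0.69 and 0.39). These are descriptions over 1344 KO and 1178 control bins, which share a section, a run and the outline of the striatum and are not independent.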

How the data were processed

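MERFISH counts were analysed for 1 control and 1 KO section. The deposited values are raw molecule counts for each gene in each segmented cell, made by the authors with the decoding and segmentation of the MERSCOPE instrument and not normalized, and the deposited molecule lists give each molecule's position and imaging plane. The segmentation model is not given in the sources used here. Software was Python 3.11.15 with pandas 2.3.3, scipy 1.17.1, numpy 2.4.6 and matplotlib 3.10.9.

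The minimum for a cell was 20 panel transcripts, blank barcodes were left out of totals, and levels were scaled to 1000000 panel transcripts. With 1 section per group there was no test. Counts carry exact Poisson and shares exact binomial (Clopper-Pearson) 95% intervals, and a ratio's bounds set the upper end of either interval against the lower end of the other. For shares and pairs, each cell was reduced to 25 transcripts as the exact mean over all draws, so numbers of cells need not be whole. The interval of a pair is the Clopper-Pearson interval of the share of the first gene among cells with the second, from these mean numbers. It was divided by the share of the first gene over all cells, taken as free of error, so it is approximate. The calculation was tested on simulated data.

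The striatal region was drawn on a smoothed grid (bins of 25 µm, SD 50 µm), where the summed and scaled maps of 6 genes reached a score of 0.45. Grid, smoothing and score were set after the maps, members included, had been seen. The medial to lateral and dorsal to ventral axes run within each hemisphere. A cell was put in a class with at least 3 transcripts of its markers and more than of any other class. The named genes were the 6 members, the listed striatal pathway genes on the panel, the 5 genes most like each member in place and the 3 highest and 3 lowest partners of each in single cells. The text gives those that its statements concern, and the others are not reported here. Likeness used log2 of CPM plus 50 over 100 µm bins with at least 1000 panel transcripts. Members and lists were chosen with earlier results of these data known. Alternatives were minima of 10, 50 and no transcripts, scaling by volume or panel median, all molecules or those of the first plane, other outlines, single hemispheres, the whole section, leaving out the largest 1% of cells, other depths of reduction, 2 transcripts for a positive cell, and 2 marker transcripts for the striatal class. Thinning the KO counts to the control depth, pairs within 100 µm bins, a striatal class without *Meis2* and the axis from the edge were added after seeing the data.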

Additional observations from a re-analysis of the deposited data

How the results depend on the processing

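The lower levels of *Chrm4* and *Gpr149* in the KO striatal region kept their direction and stayed past 1.5-fold under 14 alternatives that keep the striatal region and the scaling to transcripts, at log2 ratios of −1.53 to −0.86 and −1.58 to −0.82. *Adora2a* ranged from −0.78 to −0.36, on both sides of 1.5-fold, *Oprm1* from 0.28 to 0.51, *Drd2* from −0.04 to 0.17 and *Rxrg* from −0.32 to 0.25, so the sign of the last 2 was not fixed. Per cell volume, where the median of the panel genes moved to 2.30, *Adora2a*, *Chrm4* and *Gpr149* turned to 1.74, 1.06 and 1.04, the median of the 6 genes to 2.06, and all 6 passed 1.5-fold. Relative to that shift these 3 genes stayed lower than the panel. The median of the 6 genes, −0.29, was −0.44 with a minimum of 50 transcripts, −0.18 in the first imaging plane, −0.49 and −0.42 for control hemisphere 1 against KO hemispheres 1 and 2, and 0.087 over the whole section. With KO counts thinned to the control depth, added after seeing the data, *Chrm4* stood at −1.04, *Gpr149* at −1.33 and *Adora2a* at −0.56.

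For pairs the log2 of observed over expected is given. *Drd2* with *Adora2a* stayed above 0 throughout. In the control (1.15) it was 2.37 with at least 2 transcripts for a positive cell, 2.78 over the whole section and 0.76 with the expected number from 100 µm bins, and in the KO (1.25) it was 2.15, 2.61 and 0.88, with 1.08 at 50 transcripts and 0.99 at full depth. *Drd2* with *Oprm1* was −0.62 in the control and −0.56 in the KO. It was −0.063 in control cells at 50 transcripts, −1.53 and −2.15 with at least 2 transcripts, 1.23 and 1.15 over the whole section, 0.010 in control hemisphere 1 and 0.15 in the KO at full depth. Over the whole section, which takes in cells with few of these transcripts, other pairs also turned. *Drd2* with *Gpr149* stood at 1.20 and 0.93, *Adora2a* with *Chrm4* at 0.63 and 0.29, *Adora2a* with *Oprm1* at 0.99 and 0.75, *Adora2a* with *Gpr149* at 0.84 in the control and *Drd2* with *Chrm4* at 0.86 in the KO. At full depth in the KO, *Drd2* with *Chrm4* stood at 0.27, *Drd2* with *Gpr149* at 0.15, *Adora2a* with *Chrm4* at 0.19 and *Adora2a* with *Oprm1* at 0.20. In control hemisphere 1, *Adora2a* with *Oprm1* stood at 0.0071 and *Oprm1* with *Gpr149* at −0.27. With at least 2 transcripts, *Adora2a* with *Gpr149* stood at 1.35 in the control, and in the KO *Chrm4* with *Oprm1* at −0.60 and *Oprm1* with *Gpr149* at −0.27. The cause was not tested. Levels in the class of striatal projection neurons, which no comparison rests on, moved by more than their counting interval in 19 cases and by less in 5, *Drd2* in the control from 4825 CPM to 4464 CPM with 2 marker transcripts for the class and to 6469 CPM without *Meis2*. The levels in the other classes were not recomputed. No paired analysis was possible because each group is 1 section.

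Depth limits these values most in the control, where 9279 of 14231 striatal cells held too few transcripts to be reduced to 25 and were left out, against 793 of 16674 in the KO. Neither the level of the sections along the brain nor the spread between animals is known.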
